A study of Nothobranchius furzeri and Aphyosemion australe and Iconisemion striatum with 145 samples.

Results

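Forkhead genes of the African turquoise killifish (Nothobranchius furzeri) were read from 4 RNA-seq libraries of embryos at the pre-diapause stage. Members were the gene models whose row name in the count table is a forkhead symbol, that is fox followed by a class letter from a to s and a number. The rule found 26 members in 14 classes among 25122 genes. Each library was made from a pool of 8 to 10 embryo bodies that had been freed of chorion, enveloping layer and yolk. The embryos had a visible Kupffer's vesicle, the transient ciliated organ of left-right patterning, and 15 to 22 somites, roughly a day before the heart begins to beat. They carried no stated genetic change or treatment and came from first clutches of young parents, and most embryos of such clutches were expected to skip diapause. There is therefore 1 group and no comparison between conditions, and whole bodies were pooled, so that more cells of a type and more RNA per cell cannot be told apart.

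Forkhead factors bind DNA through a winged-helix domain, and the family is split into lettered classes by the sequence of that domain. Some classes, such as FOXA, open closed chromatin and set up endoderm and the midline, others pattern mesoderm, neural crest and brain, and FOXM drives mitotic genes. FOXO factors sit downstream of insulin signalling: when the pathway is active, AKT phosphorylates them and they leave the nucleus, and when it is quiet they turn on genes for stress resistance, cell cycle arrest and metabolism. In the roundworm and the mouse, FOXO factors are known for roles in dauer arrest, longevity and stem cell quiescence. The study asked how diapause, the suspended state that killifish embryos can enter, came to be regulated, and FOXO was among the factors it considered. The question here is which forkhead genes were read shortly before the stage of diapause, and where the foxo genes stand among them.

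Between 25985703 and 41191533 reads per library were counted, the most in library 2, and 1 count was worth 0.0243 to 0.0385 CPM, the gene's share of the library total scaled to 1000000 counts. The number of genes with a count was 21337 to 22545. The libraries were distinct, since the counts of every pair differed far beyond sampling noise (chi-square per degree of freedom of at least 82.9). Library 2 also held the largest share of counts in its top 10 genes, at 7.15%, against 6.20% to 6.32% in libraries 1, 3 and 4. Markers of the labelled tissue were read. Of 20 markers of the somite-stage body, 14 were found by name, and 13 of these reached 1 CPM in every library. That level was reached by 53.7% of all genes and 75% of those listed by symbol. The summed CPM of the 14 body markers was 357 in library 1, 534 in library 2, 334 in library 3 and 532 in library 4. Of 15 markers of the enveloping and yolk layers, which were dissected away, 8 were found and 4 reached 1 CPM in every library, led by the keratin gene krt5. Those 8 summed to 171, 121, 192 and 136 CPM in libraries 1 to 4. The sums of libraries 2 and 4 were thus higher for body markers and lower for layer markers, but single markers differed. The layer sums ordered the libraries as krt5 did, which had 89.7, 50.8, 129.9 and 82.6 CPM. The layer gene apoa1a had 66.5, 61.1, 48.4 and 41.3 CPM, more in library 2 than in library 3. Of the 14 body markers 7 were highest in library 2, while 3 were lowest there, and of the 8 layer markers 2 were highest and 3 lowest in it. Of 6 blood markers 2 were found, at 4.62, 14.1, 4.83 and 8.45 CPM in sum. Of 6 Kupffer's vesicle markers 5 were found, at 12.3, 25.9, 10.9 and 20.5 CPM in sum. Most of each sum came from sox17, at 2.77, 13.7, 3.36 and 8.58 CPM, and spaw, at 6.47, 9.44, 4.89 and 7.34 CPM. Of the 5 markers found, 3 reached 1 CPM in every library. The forkhead genes foxj1a, at 0.077, 0.631, 0.118 and 0.671 CPM, and foxj1b, at 1.85, 0.388, 1.47 and 1.27 CPM, did not. None of the markers found was at 0 in all libraries.

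Of the 26 members, 17 reached 1 CPM in every library, against 53.7% of all genes and 75% of the 10533 genes that the table lists by symbol. All members are listed by symbol, so the 75% is the closer comparison, and 17 of 26 is not above it. One member, foxb2, had 0 counts in all 4 libraries, where 4.22% of all genes and 0.522% of those listed by symbol did. With 3 counts over the 4 libraries as the limit, its level could be up to 0.0229 CPM. The members summed to 232, 272, 217 and 287 CPM in libraries 1 to 4, a mean of 252 ± 32.9 CPM (SD, n = 4). CPM is a share of reads and was not divided by transcript length, because no lengths of the counted gene models were used here. The order below is therefore one of read share, in which a longer transcript stands higher, and not one of transcript number.

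**Figure D1:**
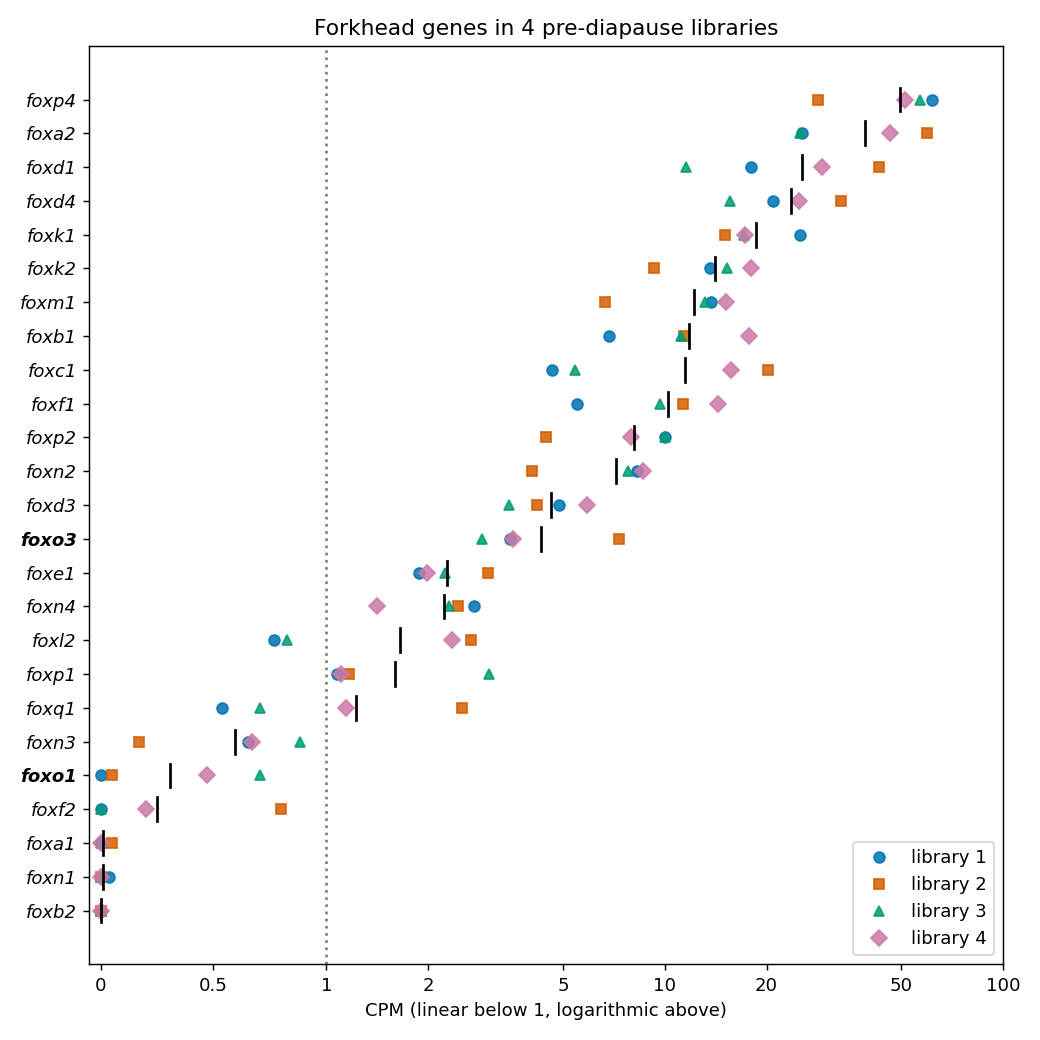
CPM of 25 of the 26 forkhead genes (rows, in order of mean CPM) in each of the 4 pre-diapause libraries (symbols), on an axis that is linear below 1 CPM and logarithmic above, with a black bar at the mean of each gene, a dotted line at 1 CPM and the foxo genes in bold. Means run from 49.6 CPM for foxp4 to 0 for foxb2, with foxo3 at rank 14 and foxo1 at rank 22 of all 26 members.

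By mean CPM, class P came first, with 59.3 CPM over its 3 members or 23.5% of the family. Its place above class D rested on single libraries: without library 1 class P had 54.8 CPM and class D 57.0 CPM, and without library 3 they had 55.7 and 61.4 CPM. Its leading gene was foxp4, a transcriptional repressor of the developing nervous system and of lung and gut in the mouse. It was read at 61.6, 28.4, 56.8 and 51.3 CPM in libraries 1 to 4, a mean of 49.6 ± 14.7 CPM (SD, n = 4). Library 2 was the lowest by a wide margin, and the other 3 lay close together. The related foxp1, known for roles in heart and motor neurons in the mouse, had 1.08, 1.17, 3.04 and 1.11 CPM. Its value in library 3 stood well above the other 3, which hardly differed.

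Class D came next with 53.7 CPM over 3 members, or 21.3% of the family, and was led by foxd1, which marks the temporal retina and the kidney stroma of the mouse. It had 17.97, 43.1, 11.6 and 29.1 CPM, high in libraries 2 and 4 and low in libraries 1 and 3. Its lead was by the mean only, since foxd4 had 20.9, 33.3, 15.6 and 24.9 CPM. That was more than foxd1 in libraries 1 and 3 and less in libraries 2 and 4. Class A followed, which consisted almost wholly of foxa2, the pioneer factor of floor plate, notochord and endoderm. Its values were 25.4, 59.6, 25.1 and 46.3 CPM, with a mean of 39.1 ± 16.9 CPM (SD, n = 4), and they fell into the same high and low libraries. Its sister gene foxa1, which acts beside it in mammalian endoderm, had 2 counts in library 2 and 0 in the other libraries.

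Class K followed with 32.7 CPM. Its leading member foxk1, a broadly expressed repressor linked to metabolism and autophagy in the mouse, had 25.1, 15.0, 17.1 and 17.3 CPM, and foxk2 had 13.6, 9.32, 15.3 and 17.97 CPM. Both were lowest in library 2, and they were among the 5 least variable members with a mean of 5 CPM or more, at CVs of 23.7% for foxk1 and 25.8% for foxk2. Next was foxm1, the driver of mitotic genes, at 13.7, 6.65, 13.1 and 15.2 CPM, again lowest in library 2.

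Leading members of 4 further classes had means of 7.18 to 11.8 CPM. The neural gene foxb1 had 6.85, 11.4, 11.2 and 17.7 CPM, lowest in library 1 and highest in library 4. The somite and head mesenchyme gene foxc1 had 4.66, 20.2, 5.42 and 15.7 CPM, a 4.34-fold range and the largest CV of any member at 1 CPM, 66.8%. Its values in libraries 2 and 4 were far above those in libraries 1 and 3. The lateral plate gene foxf1 had 5.50, 11.3, 9.67 and 14.4 CPM, and foxn2, the leading member of class N, had 8.27, 4.05, 7.78 and 8.62 CPM. These 2 went opposite ways in library 2, where foxn2 was lowest and foxf1 was second highest.

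Further down the order, the thyroid factor foxe1 stayed at 1.89 to 3.01 CPM. The ovarian factor foxl2, which had 0.770, 2.67, 0.825 and 2.35 CPM, and foxq1, which had 0.539, 2.52, 0.707 and 1.14 CPM, were under 1 CPM in libraries 1 and 3. The thymic epithelium gene foxn1 had 1 count in library 1 and none in the others. Another 5 members, named here for completeness and outside the rule for named genes, had means of 23.7 CPM (foxd4), 8.11 CPM (foxp2), 4.62 CPM (the neural crest gene foxd3), 2.22 CPM (foxn4) and 0.595 CPM (foxn3).

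The foxo gene foxo3 stood near the middle of the order and foxo1 near its lower end. The table lists these 2 by symbol, and together they had 4.63 CPM, 1.84% of the family's reads and rank 10 of the 14 classes. Read counts for foxo3, which is known in mammals for its part in stem cell quiescence, were 91, 302, 98 and 106, or 3.50, 7.33, 2.89 and 3.55 CPM. Exact 95% binomial intervals, which cover counting error only, were 6.53 to 8.21 CPM in library 2 and between 2.34 and 4.30 CPM in the other 3. Library 2 was thus above the other libraries by more than counting error, while the intervals of those 3 overlapped. By mean CPM, 4.32 ± 2.03 (SD, n = 4), foxo3 ranked 14 of 26, and its rank within single libraries ran from 10 in library 2 to 15 in library 3. Its values overlapped those of 9 other members, while 6 members lay above it and 10 below it without overlap. The insulin-responsive gene foxo1, which drives glucose production in mammalian liver, had 0, 2, 24 and 14 counts, or 0, 0.0486, 0.707 and 0.469 CPM. Its 0 in library 1 allows up to 0.115 CPM by the limit of 3 counts, which is one-sided, and up to 0.142 CPM by the two-sided exact interval. It ranked 22 of 26, with 18 members above it without overlap and none below. Libraries 3 and 4 held almost all of its reads, and its values in those libraries did not differ beyond their counting intervals (0.453 to 1.05 CPM in library 3 and 0.257 to 0.788 CPM in library 4).

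No pair of neighbours in the order was separated by its library values: in all 25 neighbouring pairs the values of both genes overlapped. The gene with the higher mean was higher in every library in 3 of these pairs. These were foxa2 over foxd1, foxo3 over foxe1 and foxn3 over foxo1.

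The table gives many genes only a LOC number, and this bears on the place of the foxo genes. A match of these numbers with RefSeq's names for the NfurGRZ-RIMD1 assembly added 23 forkhead genes, 3 of them FOXO. With them, 30 of 49 forkhead genes reached 1 CPM in every library, against 53.7% of all genes and 75% of those listed by symbol. The share over genes listed by LOC number alone was not computed, so neither share matches this mixed set. The gene named foxo4 (LOC107378306), the FOXO gene on the X chromosome in mammals, had the highest read share of the 5 foxo genes, at 12.5, 6.29, 13.7 and 12.8 CPM. A gene named foxo3a (LOC107391983) had 4.62, 5.07, 4.80 and 6.10 CPM, and foxo6b (LOC107394364), whose mammalian relative is expressed mainly in brain, had 0.346, 0.194, 0.177 and 0.335 CPM. Library 2 was the lowest for foxo4 by a wide margin, whereas foxo3a was the most even of the 3, with a CV of 12.9%. By mean CPM foxo4 ranked 12 of 49, foxo3a 20, foxo3 23, foxo1 41 and foxo6b 42.

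**Figure D2:**
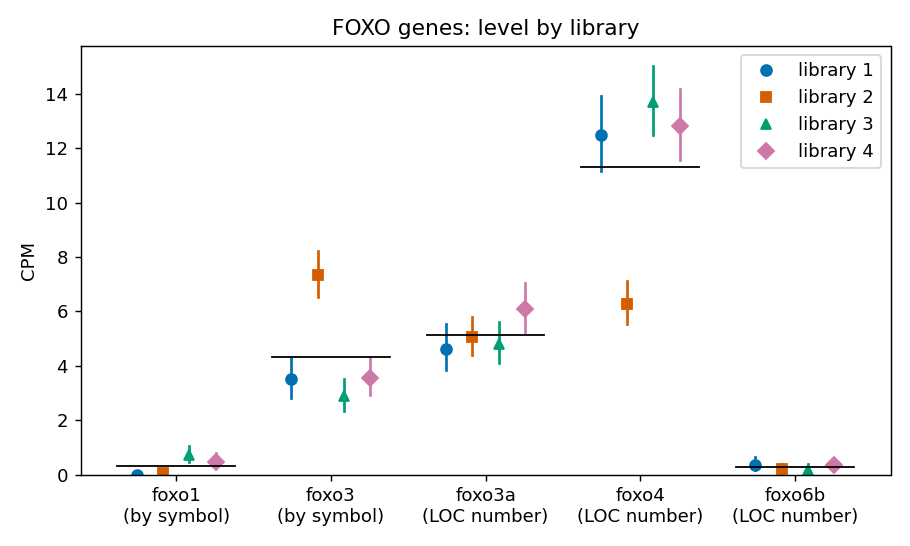
CPM of the 5 foxo genes in each of the 4 libraries, with exact 95% binomial intervals as vertical lines and the mean as a horizontal line; genes are marked as listed by symbol or by LOC number. In library 2 foxo3 is at 7.33 CPM, against 2.89 to 3.55 CPM in the others, and foxo4 at 6.29 CPM, against 12.5 to 13.7 CPM.

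Counting these genes moved the class. Class O summed to 20.9, 18.9, 22.3 and 23.3 CPM over its 5 genes, a mean of 21.4 ± 1.88 CPM (SD, n = 4), which was rank 7 of 18 classes and 5.76% of all forkhead reads. The sum had a CV of 8.78%, against 47.0% for foxo3, 30.0% for foxo4 and 12.9% for foxo3a. In library 2 foxo3 made up 38.7% of the class and foxo4 33.2%. In libraries 1, 3 and 4 foxo3 made up 12.96% to 16.7% and foxo4 55.04% to 61.5%. Classes D, P and A stayed the first 3 with the added genes, at 65.8, 59.3 and 44.4 CPM, and class C moved to 39.9 CPM through foxc1a.

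Ratios of 2 genes within a library do not depend on depth, save through the added count where counts are near 0. Their change between libraries does not depend on transcript length. The log2 ratio of foxo3 to foxo4, with 1 count added to each, was -1.82, 0.22, -2.23 and -1.84 in libraries 1 to 4, a mean of -1.42 ± 1.11 (SD, n = 4). Only in library 2 did foxo3 have more reads than foxo4, and a two-sided exact permutation test that flips signs gave p = 0.25. The ratio of foxo3a to foxo4 averaged -1.08 ± 0.55 and that of foxo6b to foxo4 -5.26 ± 0.54, both below 0 in 4 of 4 libraries (SD, n = 4, exact permutation p = 0.125 each). For foxo1 over foxo4 the mean was -5.92 ± 1.88, also below 0 in 4 of 4 libraries, with the same exact p. As foxo1 had 0 counts in library 1, the ratio there, -8.34, rests on the added count. As foxo4 was chosen as the gene with the highest read share, these 4 ratios are descriptions.

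Fish carry duplicates of many genes from a genome duplication in their ancestry, and 4 members could be set beside a row that RefSeq names as an a copy. The pairs rest on names alone, and whether the genes of a pair are duplicates of each other was not tested. The log2 ratio of foxo3 to foxo3a was -0.40, 0.53, -0.73 and -0.77, again positive only in library 2 (mean -0.34 ± 0.60, SD, n = 4, exact sign-flip permutation p = 0.375). The copy foxc1a (LOC107383906) had 23.6, 38.3, 20.2 and 31.6 CPM. The log2 ratio of foxc1 to foxc1a was -2.33, -0.92, -1.89 and -1.003, below 0 in every library, and it varied 2.66-fold between libraries. Its mean of -1.54 ± 0.69 (SD, n = 4) had an exact p of 0.125 and an adjusted p of 0.2. For foxf2 over foxf2a, genes of visceral mesoderm, the ratio was -5.46, -1.45, -5.39 and -1.28. The counts of foxf2 were 0, 33, 0 and 6, so that the ratio in libraries 1 and 3 rests on the added count. The ratio of foxq1 to foxq1a was -1.14, 1.22, -1.08 and 0.37, with both signs equally often and a mean of -0.16 ± 1.16 (SD, n = 4, exact permutation p = 1).

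**Figure D3:**
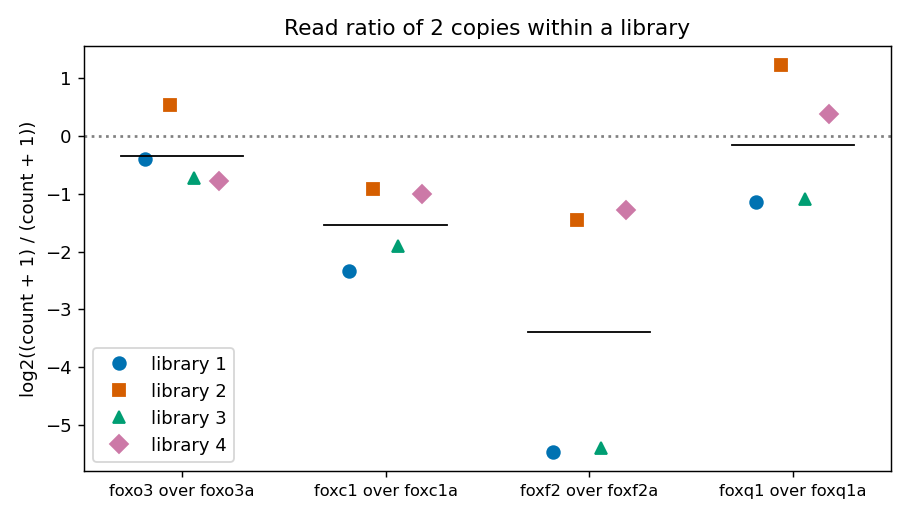
Log2 read ratio of 2 genes paired by name as copies, within each library and with 1 count added to each, for 4 pairs. Symbols are libraries, horizontal lines are means, and the dotted line at 0 marks equal read share. In all 4 pairs libraries 2 and 4 or library 2 alone hold the highest values, and the ratio of foxc1 to foxc1a lies between -2.33 and -0.92.

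Over the 8 ratios, 5 were below 0 in 4 of 4 libraries. These include foxo1, foxo3a and foxo6b over foxo4, where the choice of foxo4 by its read share favours a negative sign. With 4 libraries the sign-flip test cannot go below 2 of 16 patterns, or p = 0.125, and after Benjamini-Hochberg adjustment over the 8 ratios no p was under 0.2. The design can therefore not reach 0.05 for any pair. A mean away from 0 also holds the difference in transcript length between both genes. Reads that align to several loci were removed before counting, so near-identical stretches of copies count for neither.

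Like most genes, members varied between libraries by more than counting. Each library was made from 1 pool, so differences between pools and between library preparations cannot be told apart. The CV over the 4 libraries was over 3 times the CV that counting alone gives in 14 of the 17 members at 1 CPM, against 75.1% of all genes at that level. Over these 17 the median CV was 31.4%, against 25.1% over all 13479 genes at 1 CPM and 25.4% over the 10485 of them in the same range of mean CPM. After foxc1, the largest values were those of foxp1 at 60.2%, foxd1 at 54.3%, foxo3 at 47.0% and foxa2 at 43.2%. In 2 of the 17, foxo3 and foxp1, a single library stood apart from the other 3 by Dixon's ratio, against 4.71% of all genes at 1 CPM. Without library 2 the median was 22.9% over the members and 19.6% over all genes at 1 CPM.

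In library 2, members were highest or lowest about as often as genes in general. Of the 17 members at 1 CPM, 6 were highest there (foxa2, foxd1, foxd4, foxc1, foxo3 and foxe1), where 34.7% of all genes at 1 CPM were, and 6 were lowest there (foxp4, foxk1, foxk2, foxm1, foxp2 and foxn2), where 36.6% of all genes were. Both counts are near the share over all genes. Library 4 held the highest value of 6 members, where 18.2% of all genes were highest, and the lowest of 1, where 10.5% were lowest. Library 1 was highest for 3 members and lowest for 5, against 33.1% and 14.2% of all genes, and library 3 was highest for 2 and lowest for 5, against 14% and 38.7%. The shares of libraries 1 and 3 over all genes move with the scaling. With TMM factors from edgeR, library 1 was highest for 2 members and 20.2% of all genes, and lowest for 6 members and 24.8%. Under the same factors library 3 was highest for 3 members and 28.6% of all genes, and lowest for 4 members and 24.9%. Libraries 2 and 4 together held the 2 highest values of 7 of the 17 members, of 10 of the 13 forkhead genes at 1 CPM listed by LOC number, and of 28.8% of all genes at 1 CPM. With TMM factors these values were 6, 8 and 28.9%, and with DESeq2's size factors 6, 8 and 27.1%. Libraries 2 and 4 are those with the higher sum of body markers and the lower sum of layer markers given above. Single markers went both ways, and the layer sums ordered the libraries as krt5 did. The part of these markers in the result was not tested.

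**Figure D4:**
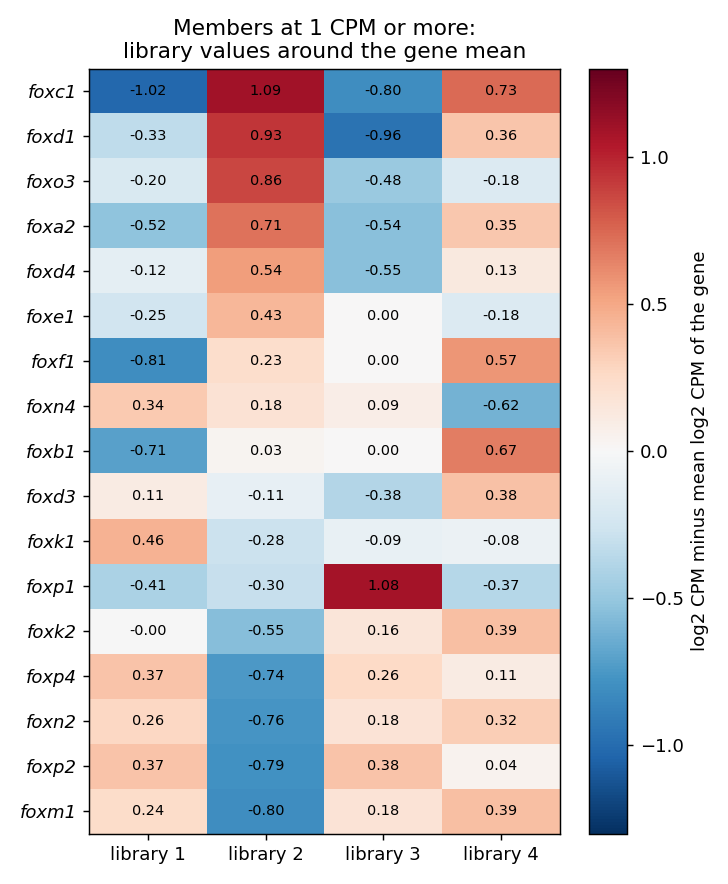
Log2 CPM of each of the 17 members at 1 CPM in every library minus the mean log2 CPM of that gene, by library (columns), with red above and blue below the mean and genes ordered by library 2. In library 2 the values run from 1.09 for foxc1 to -0.80 for foxm1, with foxo3 at 0.86, and foxp1 stands out in library 3 at 1.08.

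Most other genes of the FOXO pathway that were found reached 1 CPM in every library. Over all genes the share was 53.7%, and over those listed by symbol 75%. The pathway genes are listed partly by symbol and partly by LOC number, so neither share matches these lists. Whether they reached 1 CPM more often than a matched set was not tested. Of 26 genes listed upstream of FOXO, 15 were found and 12 of them reached 1 CPM in every library. They included the insulin receptor gene insra at 15.1 CPM on average, the phosphoinositide 3-kinase subunit pik3r1 at 51.9 CPM, the kinases pdpk1 at 29.1 CPM and akt1 at 25.5 CPM, and pten, the phosphatase that opposes them, at 24.8 CPM. Library 2 held the lowest value of 8 of the 15, these 5 included, against 36.6% of all genes at 1 CPM. Among the 8 was akt3a, which was under 1 CPM there, at 0.267 CPM. Library 2 held the highest value of 3, against 34.7% of all genes at 1 CPM. These were the kinase genes akt2 and sgk1 and the gene for the FOXO-binding 14-3-3 protein ywhaba, with 484, 1072, 376 and 790 CPM for ywhaba. Of 25 genes listed as FOXO targets, 20 were found and 15 reached 1 CPM in every library. The antioxidant enzymes sod2 and cat led the list at 574 and 381 CPM. The cell cycle inhibitor cdkn1b had 20.5, 9.01, 17.0 and 18.6 CPM, lowest in library 2, whereas the DNA damage gene gadd45aa had 5.08, 13.3, 3.71 and 7.48 CPM, highest in it. The 5 targets under 1 CPM in at least 1 library included the liver gene pck1 at a mean of 0.230 CPM and the muscle gene fbxo32 at 0.936 CPM, whereas pdk4, which acts in both tissues, averaged 27.2 CPM. Of the 20 targets, 7 were highest and 4 lowest in library 2, against 34.7% and 36.6% of all genes at 1 CPM. The sets are unlike, since the 20 include the 5 targets under 1 CPM. Among the 7 were g6pc, at 0.243 CPM in library 2, and klf15, at 0.413 CPM there.

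Targets listed for other forkhead factors were read to differing extents. Over all genes 53.7% reached 1 CPM in every library, and 75% of those listed by symbol did. All 12 FOXM1 targets found, of 14 listed, reached 1 CPM in every library, from 14.1 CPM for the kinesin gene kif20a to 689 CPM for cdk1. Library 2 held the lowest foxm1 value. It held the highest value of 7 of these 12, among them the mitotic kinase genes plk1 and aurka, and the lowest of 3. Over all genes at 1 CPM, 34.7% were highest and 36.6% lowest there. The cyclin gene ccnb1 had 10.7, 53.8, 10.5 and 32.9 CPM, high in libraries 2 and 4. Of 17 ciliary genes listed as FOXJ1 targets 12 were found and 6 reached 1 CPM in every library. The radial spoke gene rsph9 led them at 34.9 CPM, and the dynein gene dnai1 was lowest at 0.231 CPM. Of 15 Nodal pathway genes listed with FOXH1, 7 were found and 6 reached 1 CPM, among them smad2, which carries the Nodal signal to the nucleus, at 33.4 CPM.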

How the data were processed

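RNA was sequenced from 4 libraries of African turquoise killifish embryo bodies. According to the methods and labels, a SMART-Seq kit for low input gave amplified cDNA, which was sequenced in pairs, and reads were trimmed with Trim Galore 0.4.5, aligned with STAR 2.7.1a, restricted to single-locus alignments and counted with featureCounts (Subread 2.0.1). The authors deposited whole-number read counts per gene, without normalization. The submitters' notes also name SAMtools 1.5 and DESeq2 1.30.1. Libraries of the other species and of knockout embryos are not analysed here. Replicates are only numbered in the labels, so p-values measure the spread between these samples.

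CPM on library totals, CVs, exact binomial intervals, Dixon's ratio and within-library ratios (1 count added, exact sign-flip permutation test) came from scripts that use scipy 1.17.1, numpy 2.4.6 and pandas 2.3.3 under Python 3.11.15, with plots from matplotlib 3.10.9. Scaling factors came from edgeR 4.0.16 and DESeq2 1.42.0 in R 4.3.3. Dixon's ratio was tested on simulated counts, and the sign-flip test was checked only on fixed examples with known answers. Levels per coding length had been planned, but no lengths were used here, so order and ratios are of reads. RefSeq (NfurGRZ-RIMD1, an assembly other than the one counted) gave names only. Whether the row foxo3 is the b copy could not be matched by number.

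Named genes were every foxo gene, the leading member of each class, members at 0, those with 1 library apart, both copies of pairs past 4-fold in every library, and the 5 highest and 5 lowest CVs at a mean of 5 CPM or more. Members and lists (body, layer, blood and Kupffer's vesicle markers, and genes around FOXO, FOXM1, FOXJ1 and FOXH1) were chosen with earlier results of these data known. The values of 1 member are not reported here, though it is in the counts. Alternatives covered the expression level, scaling, pseudocount, added names, average and leaving out each library.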

Additional observations from a re-analysis of the deposited data

Results flagged for a closer look

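In 4 of the 25 members with a count, 1 library stood apart from the other 3 by Dixon's ratio, which marks about 1 in 20 groups by chance. At 1 CPM in every library this held for 2 of 17 members, against 4.71% of all genes at that level. The gene foxo3 had 7.33 CPM in library 2, and foxp1 had 3.04 CPM in library 3. The other cases rest on 1 or 2 counts: foxa1 had 0.0486 CPM in library 2 and foxn1 had 0.0385 CPM in library 1. A gene with counts in a single library is always marked by this ratio. The rate of 1 in 20 therefore does not hold for foxa1 and foxn1.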

How the results depend on the processing

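Of 91 alternative values, 4 moved, 2 reversed and 85 kept their direction within the spread between libraries or, for counts, within 1.5 times. Among the 85 were foxf2 over foxf2a, at -2.19 with 5 counts added in place of -3.40, FOXO targets, with 10 at 5 CPM in place of 15, and FOXJ1 targets, with 9 at 0.5 CPM in place of 6. The count of 17 members at 1 CPM was 9 at 5 CPM and 30 with the forkhead genes listed by LOC number, and 17 to 18 without 1 library. Shares over all genes at 5 CPM and at 0.5 CPM were not computed. The counts at these levels therefore do not show whether the change is particular to the genes counted. The count of members at 0 was 1 to 2 when a library was left out, since foxn1 or foxa1 then joined foxb2. The mean log2 ratio of foxq1 to foxq1a, -0.16, was -0.62 to 0.17 without 1 library, with 0.17 without library 1 and 0.15 without library 3. Trimmed-mean (TMM) factors of 0.913 to 1.08 shift every gene of a library by -0.11 to 0.13 on the log2 scale. Under them 5 members had 1 library apart: foxo3, foxp1 and foxn4, and also foxa1 and foxn1, which had counts in a single library. With DESeq2's size factors 6 had, with foxn2 added, lowest in library 2. The share of all genes marked was not computed under either scaling, so these counts have no background. Under either scaling, an alternative chosen after seeing the data, 6 members were highest and 6 lowest in library 2. The class sums without single libraries were also added after seeing the data. Low counts limit foxo1 and the other members with a mean under 1 CPM. No paired analysis was possible because the table holds 1 group.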
